A study of Mus musculus with 6 samples.

Results

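The mRNAs of 46 RNA-binding proteins were followed through an RNA immunoprecipitation of hnRNPK in Min6 cells, a mouse insulinoma line that secretes insulin. The set takes in the hnRNP genes other than Hnrnpk, the polypyrimidine tract proteins, the FET proteins Ewsr1 and Taf15 with Tardbp and Matr3, the Elavl, Musashi and Celf proteins, Rbfox2, a group of KH domain proteins and Zfp385a. The rule takes genes by name, and all 46 were found among the 53379 genes in the deposited tables. In 3 libraries the RNA had come down with an antibody against hnRNPK (the IP), and in 3 it was total RNA of the lysate. All 6 libraries came from cells at passage 31 that had been kept for 30 h in 25 mM glucose with 500 µM palmitic acid, which the labels name glucolipotoxicity, so no untreated cells enter the comparison. The IP took lysate with 200 µg of protein, and total RNA took a 10% input. No immunoprecipitation with a control antibody was analysed here, so RNA held by beads or antibody alone is counted together with RNA bound through hnRNPK. The comparison asks how the share of each of these mRNAs in the IP differed from its share in the lysate.

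hnRNPK binds single-stranded RNA through KH domains, with a preference for runs of C, and acts in splicing, stability and translation. Many RNA-binding proteins bind their own mRNAs and those of their relatives, and the splicing of several hnRNP and polypyrimidine tract mRNAs is under such control. In beta cells the Elavl and polypyrimidine tract proteins act on mRNAs of insulin and of secretory granule proteins. Celf3, Elavl3 and Elavl4 are otherwise best known from neurons.

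Total counts per library ran from 38764925 to 52735957, and the 46 genes took 0.930% to 1.16% of the counts in the IP and 0.800% to 0.871% in total RNA. IP libraries detected 17471 to 21306 genes and total RNA libraries 21805 to 22625. IP libraries varied more from each other, with a biological coefficient of variation of 43.1% against 12.2% for total RNA, and mitochondrial genes took 3.25% to 5.99% of the counts in the IP against 1.39% to 1.88% in total RNA. Of 14 beta cell markers, all 14 were detected in total RNA, with a summed level of 32460 to 44966 CPM there (CPM are read counts relative to the library's total after TMM scaling) and 12457 to 15458 in the IP. The lower sum in the IP rests on 6 depleted markers, among them Ins2, Iapp, Chga and Chgb, while the other 8 were enriched, such as Pdx1 (log2 fold change ± SE of 1.52 ± 0.07) and Nkx2-2 (1.93 ± 0.08). Other islet markers summed to 139 to 174 CPM in total RNA and 127 to 175 in the IP (Hhex at 0), exocrine and duct markers to 200.5 to 250.0 and 33.8 to 58.0 (nearly all of it Spp1, with Cpa1, Prss2, Amy2a5 and Pnlip at 0), and stromal, endothelial and immune markers to 2.97 to 4.32 and 6.58 to 9.75 (Cd3e at 0). Their part in the results was not tested. For marker levels in total RNA, fewer cells of a type and less RNA per cell cannot be told apart in such bulk samples. The IP took its RNA from lysate, so between IP and total RNA a marker differs in its share of the RNA recovered.

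For every gene with a 3′ UTR of at least 100 bases, the 30-base window with most C was read from the longest protein-coding transcript of GENCODE M21 (GRCm38). These windows are shown because the share of C in the 3′ UTR went with the fold change across the set, as described further on. Runs of 3 or more C stand in capitals, and sequences read 5′ to 3′ on the transcript strand. The first 5 belong to mRNAs over-represented in the IP, and the window of Celf2 held 25 C, a number reached by 0.334% of the 12872 tested genes with such a 3′ UTR.
Celf2: cgtCCCCCCtCCCCCtCCCCCCCCCCCacc
Elavl3: CCCCCCCatCCCacctcgCCCtCCCCaCCC
Khsrp: gccgcctCCCtcctctgtCCCCCtCCCCCC
Msi1: CCCCagcagagCCCCaCCCaCCCaCCCacc
Zfp385a: gaaCCCCgCCCCCtgCCCttCCCtctCCCC
They lie at chr2:6541091-6541120 (minus strand) for Celf2, chr9:22018145-22018174 (minus) for Elavl3, chr17:57022106-57022135 (minus) for Khsrp, chr5:115455148-115455177 (plus) for Msi1 and chr15:103314767-103314796 (minus) for Zfp385a. Elavl3 had 23 C, Khsrp 21 and both Msi1 and Zfp385a 20, reached by 1.90%, 6.30% and 10.2% of tested genes.

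The next 3 windows come from the polypyrimidine tract proteins, of which Ptbp1 and Ptbp3 were over-represented and Ptbp2 was not called.
Ptbp1: ggccagCCCtggccacatctaCCCCatCCC
Ptbp3: ttcttttttCCCCCCactgtagcacactcc
Ptbp2: gtctttctctgctgccttttctctctctcc
Ptbp1 had 16 C (chr10:79864275-79864304, plus), Ptbp3 13 (chr4:59476265-59476294, minus) and Ptbp2 12 with no run of 3 (chr3:119718862-119718891, minus). At least as many C were held by 47.7%, 81.6% and 88.6% of tested genes, so none of these 3 windows is rich in C beside other 3′ UTRs. The last 3 belong to mRNAs under-represented in the IP.
Elavl2: tctttCCCCacctccttatctttccttttc
Hnrnpa1: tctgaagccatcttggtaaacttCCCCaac
Hnrnpf: cctcttcagtgtttctcatgcaaacttttc
Elavl2 had 13 C (chr4:91252833-91252862, minus), Hnrnpa1 10 (chr15:103244616-103244645, plus) and Hnrnpf 9 (chr6:117925145-117925174, plus). For Hnrnpa1 and Hnrnpf, 96.6% and 98.2% of tested genes had a window with at least as many. A window is a description of the annotated transcript and not a binding site found in these data.

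Levels are given as these CPM, and changes as log2 fold changes (IP minus total RNA) ± SE. A gene is called enriched or depleted where edgeR's quasi-likelihood test gave a Benjamini-Hochberg adjusted p under 0.05 over all 16929 genes tested. Of the 46 genes, 45 had enough reads for the test. Among these 45, 19 were enriched (42.2%, against 28.9% of all tested genes), 18 were depleted (40%, against 33.6%) and 8 were not called. In either direction 82.2% were called, where 62.4% of all genes were. Igf2bp3 passed the filter on low counts in the IP alone, and over the 44 genes that passed it in both groups 18 were enriched and 18 depleted. At least 2-fold enrichment was seen for 14 of the 45 (13 without Igf2bp3), and for 19.6% of all tested genes. At least 2-fold depletion was seen for 13 of the 45, and for 24.5% of all tested genes. The IP and total RNA libraries did not overlap for 37 of the 45, or 82.2%, against 71.4% of all tested genes. The median log2 fold change was 0.04 for the set and −0.07 for all tested genes, so the set as a whole lay near the middle while its members spread from −2.45 to 3.14.

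The zero point depends on the scaling, since scaling by library totals moved the median of all genes by −0.43. With it 13 of the 45 were enriched and 25 depleted, beside 3447 and 7278 of all 16929 tested genes. With an offset for gene length 11 were enriched and 22 depleted, beside 4453 and 6335 of all 16929. Enriched genes then made up 33.3% of the calls in the set and 41.3% of those over all genes. In the main test these shares were 51.4% and 46.3%, so the set's larger share of enriched calls was not kept with the length offset. The 18 depleted genes kept direction and call in every one of the 17 alternatives, while 11 of the 19 enriched genes did: Ptbp1, Ptbp3, Hnrnpul1, Elavl3, Msi1, Msi2, Celf1, Celf2, Celf3, Khsrp and Zfp385a. Of the 8 genes not called, 0 kept both direction and lack of a call in all alternatives.

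**Figure D1:**
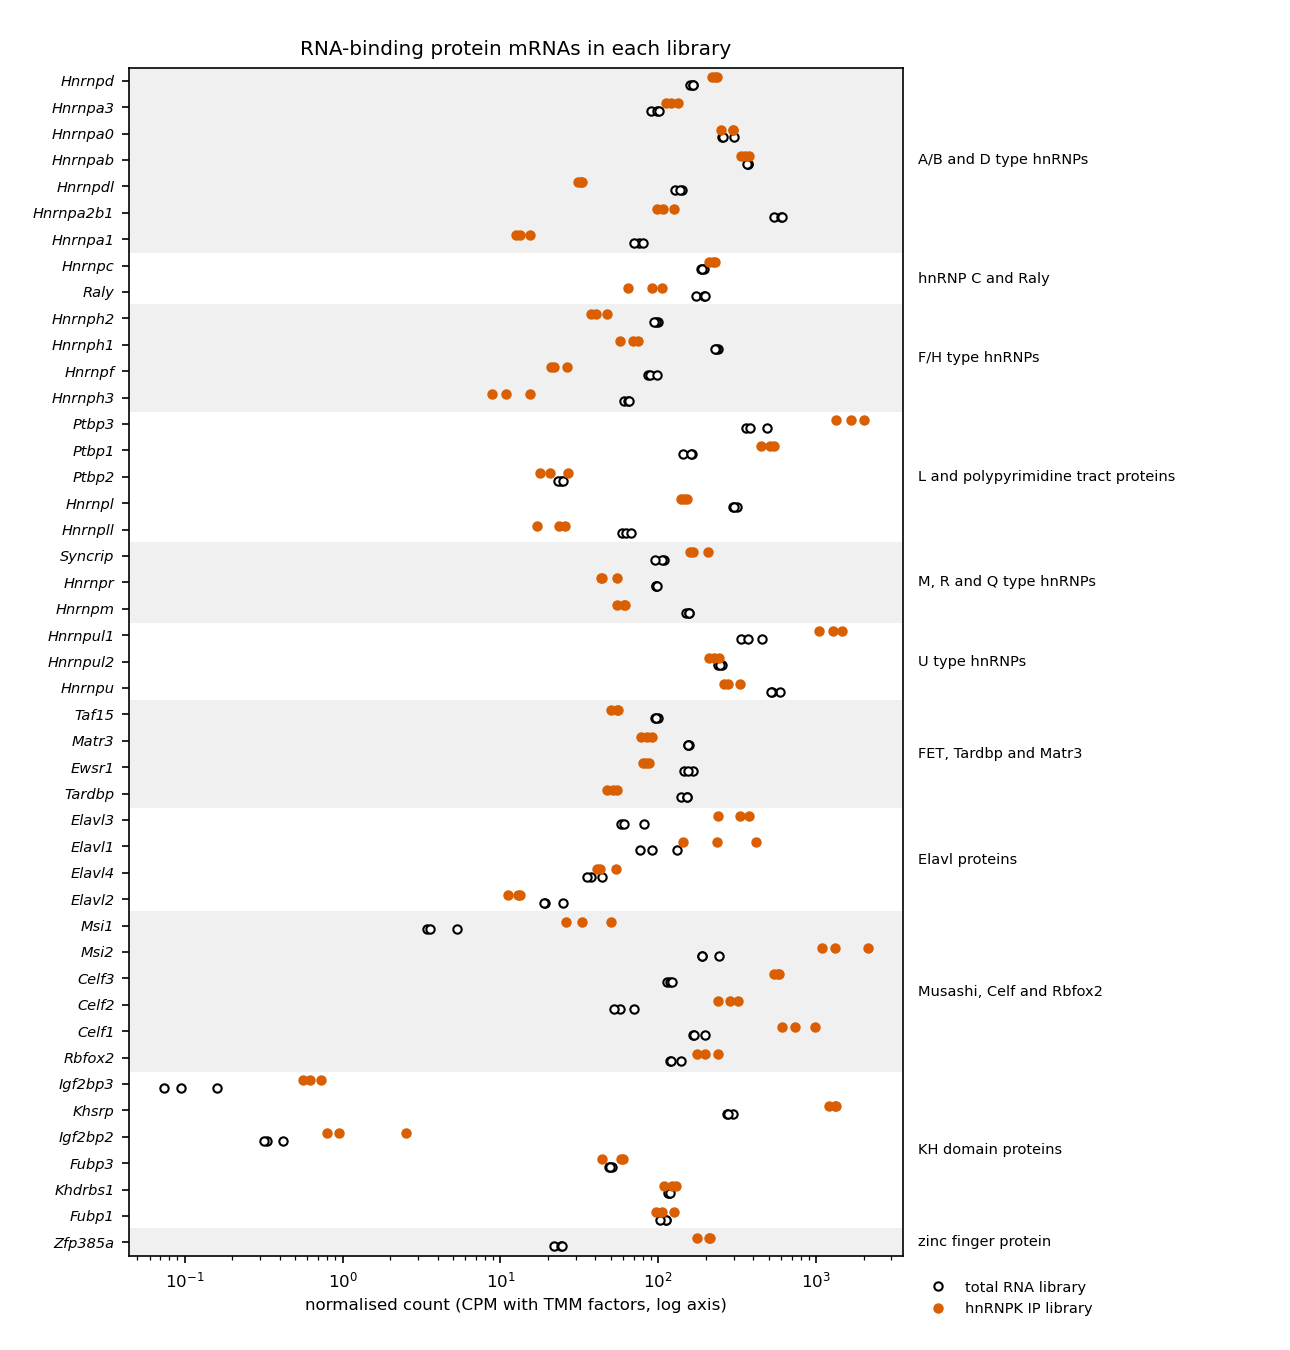
Normalised counts (CPM with TMM factors, log axis) of the 45 tested genes in each of the 3 hnRNPK IP libraries (filled) and the 3 total RNA libraries (open), by protein group. For Msi1, Zfp385a and Ptbp3 all IP points lie to the right of the total RNA points, and for Hnrnpa1, Hnrnpf and Hnrnph3 all lie to the left.

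The A/B and D type hnRNPs coat nascent transcripts and take part in splicing and mRNA export, and they fell on both sides. Of these 7 genes, 3 were depleted (Hnrnpa1, Hnrnpa2b1 and Hnrnpdl), 2 enriched (Hnrnpa3 and Hnrnpd) and 2 not called. Hnrnpa1, a repressor of splice sites, had 13.3, 12.6 and 15.4 CPM in IP libraries 1, 2 and 3 and 75.0, 70.6 and 80.3 CPM in total RNA libraries 1, 2 and 3. Every IP library was far below every total RNA library, and the log2 fold change of −2.45 ± 0.12 was the lowest of the whole set (edgeR quasi-likelihood test, adjusted p = 2.46e-06). Hnrnpa1 has processed pseudogenes, and the labels do not say how reads shared with them were counted, so its level is uncertain. Hnrnpa2b1, which also helps to transport and sort RNA, was at 98.1, 107 and 125 CPM in the IP and 540.0, 600.0 and 608 in total RNA (−2.40 ± 0.11). Hnrnpdl, a D-like protein, had 32.4, 31.2 and 32.9 CPM against 127, 142 and 138 (−2.07 ± 0.09), again without overlap.

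Their close relatives stood apart. Hnrnpd, also known as AUF1 and a binder of AU-rich elements, had 236, 227 and 219 CPM in the IP and 159, 167 and 167 in total RNA (0.47 ± 0.08, adjusted p = 0.000991 in the edgeR test). Hnrnpa3 had 111, 121 and 132 CPM against 89.8, 98.1 and 101 (0.34 ± 0.10, edgeR adjusted p = 0.0183). Both were higher in every IP library, but each change lay within the 0.43 by which the zero point moved or close to it. With library totals the value of Hnrnpd was 0.03 and that of Hnrnpa3 −0.10, with the length offset −0.08 and −0.01, and without IP replicate 3 Hnrnpa3 was no longer called (0.21, adjusted p = 0.0953). Hnrnpa0 (0.06 ± 0.11) and Hnrnpab (−0.06 ± 0.08) were not called in the IP. With library totals both were called depleted (−0.38, edgeR adjusted p = 0.0193, and −0.49, adjusted p = 0.00116). Of the exonic bases of Hnrnpab, 29.1% overlap Phykpl on the opposite strand.

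Hnrnpc binds U-rich tracts of nascent RNA, and Raly is its nearest relative. Hnrnpc had 229.7, 209.7 and 222 CPM in the IP and 186, 195 and 189.6 in total RNA (0.21 ± 0.08, edgeR adjusted p = 0.0443). This was the smallest called change of the set. It lost the call without any 1 of IP replicates 1 and 3 or total RNA replicates 1, 2 and 3 (0.15 to 0.27, adjusted p = 0.0661 to 0.297). With library totals it was called depleted (−0.22, edgeR adjusted p = 0.0463). Raly had 91.8, 64.4 and 106 CPM in the IP against 174, 196 and 198 in total RNA. The log2 fold change of Raly was −1.12 ± 0.17, and it was the only one of 5 set members in the top quintile of 3′ UTR C content that was depleted.

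All 4 F/H type hnRNPs, which bind G-rich tracts and regulate splicing and polyadenylation, were depleted, with a median of −1.89. Hnrnph3 had 10.8, 8.86 and 15.4 CPM in the IP and 60.9, 64.6 and 64.8 in total RNA (−2.43 ± 0.20, edgeR adjusted p = 2.24e-05). Hnrnph2 stood at the other end of this group, with 37.3, 40.2 and 47.1 CPM against 99.5, 97.4 and 93.7 (−1.22 ± 0.11). Hnrnpf (−1.98 ± 0.13) and Hnrnph1 (−1.80 ± 0.11) lay between them. In each of the 4 genes IP library 3 was the highest IP library and still below all total RNA libraries. Hnrnpf shares 26.5% of its exonic bases with 2 genes of the annotation's class TEC on the opposite strand.

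Proteins of the L and polypyrimidine tract family bind CA-rich or pyrimidine-rich RNA and mostly repress exons. They divided, with 2 enriched, 2 depleted and 1 not called. Ptbp3 had 1652, 1997 and 1337 CPM in the IP and 489, 360.4 and 384 in total RNA (2.02 ± 0.17, edgeR adjusted p = 2.78e-05). Ptbp1, the form made in most cell types and a binder of insulin mRNA, had 513, 446 and 538 CPM against 142, 164 and 161 (1.68 ± 0.10). For both, the lowest IP library was above the highest total RNA library by a wide margin. Ptbp2, the form typical of neurons, had 20.8, 26.7 and 17.9 CPM in the IP and 24.4, 23.2 and 25.0 in total RNA (−0.15 ± 0.17, edgeR adjusted p = 0.46). Its IP libraries lay on both sides of total RNA, and it was called depleted without IP replicate 2 (−0.32, adjusted p = 0.0451), with library totals (−0.59) and with the offsets for length (−0.86) and GC content (−0.45). Hnrnpl had 139.7, 145 and 153 CPM against 297, 317 and 300.3 (−1.06 ± 0.08). Hnrnpll, which directs exon skipping in lymphocytes, had 23.7, 17.1 and 25.6 CPM against 58.7, 62.1 and 66.7 (−1.50 ± 0.16). Of the exonic bases of Ptbp1, 20.7% overlap other genes, among them Plppr3 on the opposite strand.

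**Figure D2:**
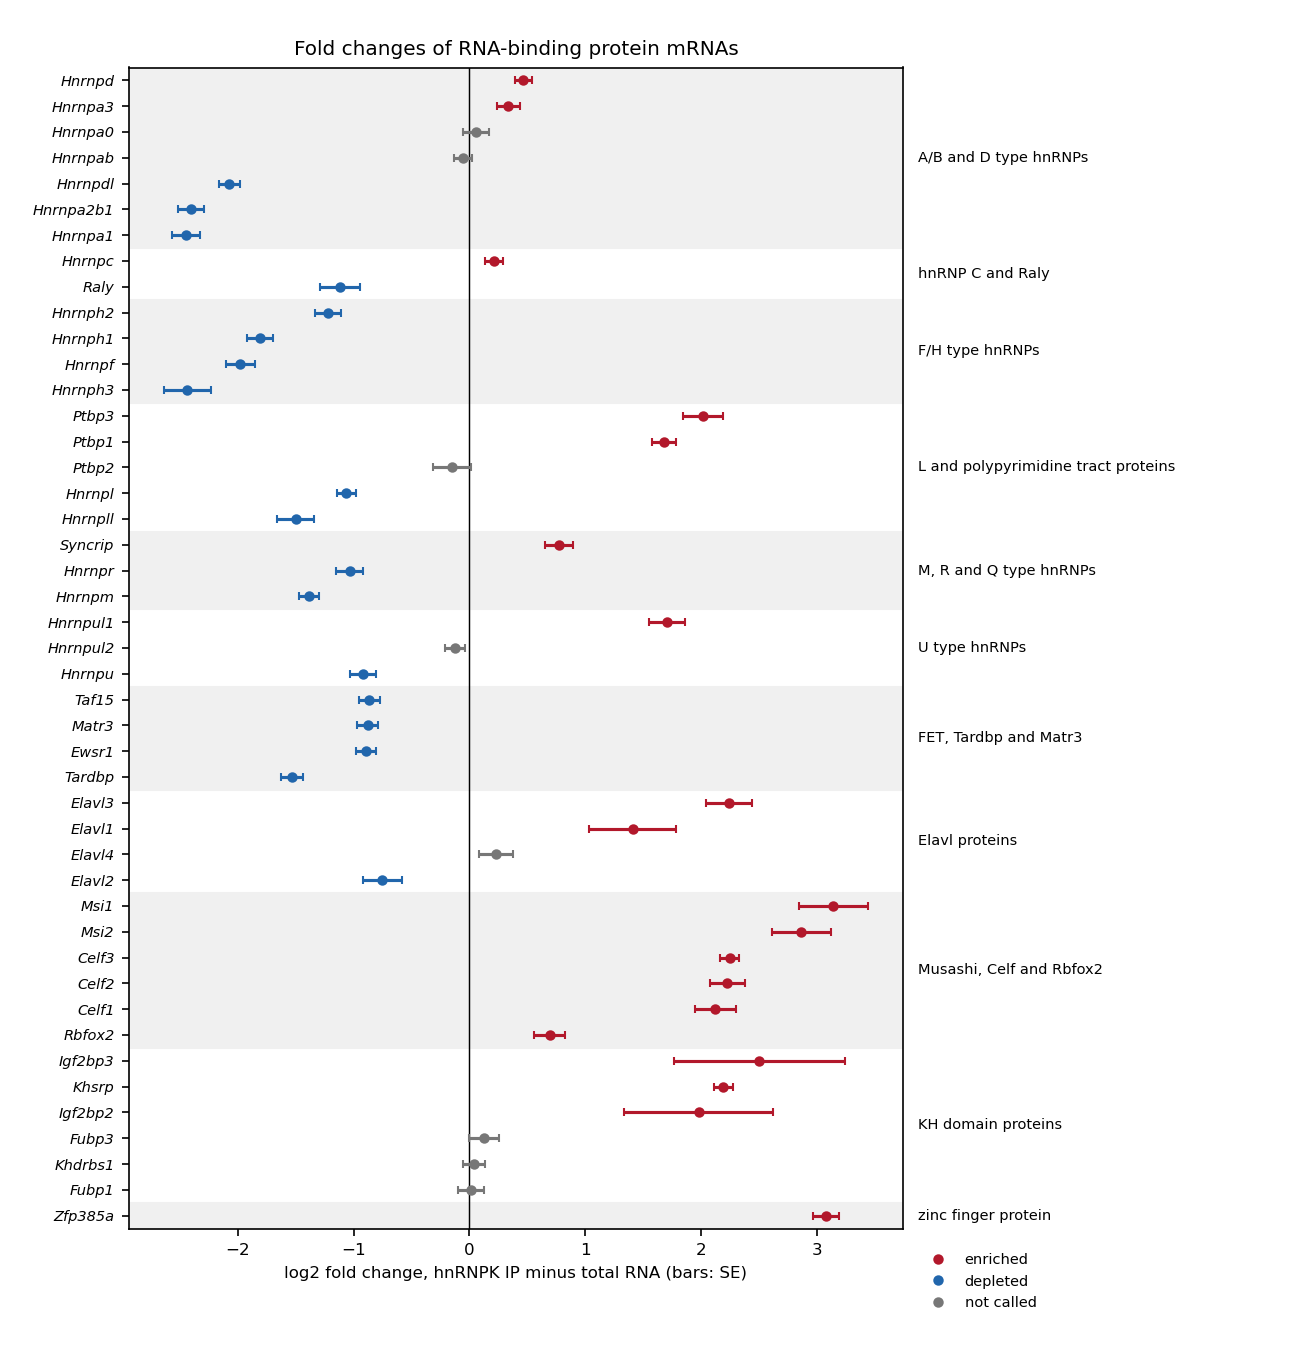
Log2 fold changes (hnRNPK IP minus total RNA, bars show the SE) of the 45 tested genes, ordered within protein groups and coloured by call. F/H type hnRNPs lie between −2.43 and −1.22, the Musashi and Celf genes between 2.12 and 3.14, Ewsr1, Taf15, Tardbp and Matr3 between −1.53 and −0.86, and Zfp385a at 3.08.

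Hnrnpm, a splicing regulator that binds GU-rich RNA, had 60.9, 54.8 and 61.9 CPM in the IP and 150.0, 157 and 156 in total RNA (−1.38 ± 0.09, edgeR adjusted p = 6.92e-06). March2 covers 14.7% of its exonic bases on the same strand, so reads there cannot be assigned to one gene. Hnrnpr and Syncrip (hnRNP Q) are near relatives that act in mRNA transport and stability, and they moved in opposite directions. Hnrnpr had 43.2, 55.0 and 44.3 CPM in the IP against 96.7, 96.9 and 98.3 in total RNA (−1.03 ± 0.11). Syncrip had 159, 206 and 165 CPM against 109, 105 and 95.4 (0.78 ± 0.12, edgeR adjusted p = 0.00068). With the length offset Syncrip was at −0.09, where it was not called.

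The U type proteins bind RNA and chromatin as scaffold factors, and the 3 genes gave 3 different outcomes. Hnrnpul1 had 1274, 1469 and 1038 CPM in the IP and 452, 335 and 371 in total RNA (1.71 ± 0.16, edgeR adjusted p = 4.04e-05). Hnrnpu had 277, 330.1 and 259 CPM against 593, 524 and 516 (−0.92 ± 0.11). Neither overlapped between the groups. Hnrnpul2 had 226, 243 and 209 CPM in the IP and 255, 240.0 and 245 in total RNA (−0.13 ± 0.09, edgeR adjusted p = 0.242), and IP library 2 lay within the range of total RNA. It was called depleted with library totals (−0.56) and with the length offset (−0.65).

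Ewsr1, Taf15, Tardbp and Matr3 encode nuclear proteins of transcription, splicing and RNA granules, several of them mutated in motor neuron disease. All 4 were depleted, with a median of −0.88. Tardbp, which controls its own mRNA through its 3′ UTR, had 47.6, 51.6 and 54.5 CPM in the IP and 139.8, 152 and 152 in total RNA (−1.53 ± 0.09, edgeR adjusted p = 5.75e-06). The smallest depletion was that of Taf15, with 50.2, 55.9 and 54.5 CPM against 95.3, 100.1 and 96.9 (−0.86 ± 0.09). Ewsr1 (−0.89 ± 0.09) and Matr3 (−0.88 ± 0.09) were close to it. Exonic overlap with other genes reached 23.3% for Tardbp (Masp2) and 17.3% for Matr3.

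Elavl proteins bind AU- and U-rich elements and stabilise the mRNAs that carry them. Elavl3 had 329.7, 375 and 239 CPM in the IP against 80.7, 58.0 and 60.7 in total RNA (2.24 ± 0.20, edgeR adjusted p = 3.11e-05). Elavl1, the widely made form also known as HuR, had 236, 417 and 143 CPM against 132, 76.4 and 91.1 (1.41 ± 0.38, edgeR adjusted p = 0.0115). The IP libraries of Elavl1 differed among themselves by more than those of any other gene in the set above 5 CPM, with a coefficient of variation of 52.6%, and the lowest IP library was barely above the highest total RNA library. Without IP replicate 2 the value of Elavl1 was 0.91, still called, and it was no longer called with library totals (0.97, adjusted p = 0.0503) or with the length offset (0.60, adjusted p = 0.0933). Elavl2 had 12.9, 13.4 and 11.2 CPM against 25.0, 19.2 and 18.8, a depletion of −0.75 ± 0.17. Elavl4, which binds insulin mRNA and lowers its translation, had 42.5, 53.8 and 41.0 CPM against 44.3, 37.5 and 35.1 (0.23 ± 0.15, edgeR adjusted p = 0.206), with overlap between the groups.

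Every gene of the group of Musashi, Celf and Rbfox2 was enriched, 6 of 6 with a median of 2.24, and all but Rbfox2 also held with library totals and the length offset. Msi1, which represses the translation of mRNAs with UAG-containing sites, had 33.0, 49.8 and 26.1 CPM in the IP and 5.32, 3.41 and 3.56 in total RNA. At 8.84-fold, or 3.14 ± 0.30 on the log2 scale, it was the highest of the set and above 99.6% of all tested genes (edgeR adjusted p = 4.42e-05). Msi2, its close relative, had 1319, 2125 and 1082 CPM against 241, 189 and 190.3 (2.87 ± 0.25). For both Musashi mRNAs IP library 2 stood well above the other IP libraries, and the lowest IP library was still several times the highest total RNA library.

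Celf proteins bind GU-rich elements in splicing and mRNA decay. Celf3, which is made mainly in the nervous system, had 539, 578 and 571 CPM in the IP and 114, 119 and 123 in total RNA (2.25 ± 0.08, edgeR adjusted p = 1.26e-06). Celf2 had 283, 321 and 239 CPM against 70.5, 57.5 and 52.2 (2.23 ± 0.15). Celf1 had 733, 978 and 611 CPM against 197, 167 and 169 (2.12 ± 0.18). In this test the 3 Celf genes thus lay within a narrow band of fold change although their levels in total RNA differed. The band depended on the processing. Over the 17 alternatives the lowest values were 1.06 for Celf2, 1.46 for Celf1 and 1.81 for Celf3. Rbfox2, a splicing regulator that recognises UGCAUG, had 197, 239.9 and 176 CPM against 139.8, 118 and 120.3 (0.69 ± 0.13, edgeR adjusted p = 0.00219). Its call was lost with library totals (0.26) and with the length offset (0.07).

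KH domain proteins share the RNA-binding fold of hnRNPK itself. Of the 7 genes, 3 were enriched, 3 were not called and Igf2bp1 was not tested, with 4 reads in all libraries together. Khsrp, which promotes the decay of mRNAs with AU-rich elements and the maturation of some microRNAs, had 1325, 1212 and 1331 CPM in the IP and 297, 272 and 278 in total RNA (2.19 ± 0.08, edgeR adjusted p = 1.29e-06). Its relatives Fubp1 (0.01 ± 0.11) and Fubp3 (0.12 ± 0.13) were not called, and neither was Khdrbs1, also known as Sam68 (0.04 ± 0.09). Fubp1 had 96.9, 126 and 106 CPM in the IP and 111, 112 and 103 in total RNA, with overlap. Fubp1 and Khdrbs1 were called depleted with the length offset (−0.96 and −0.42) and with library totals (−0.42 and −0.40). Fubp1 was also called depleted with the GC offset (−0.31). Igf2bp3 had 19, 24 and 25 reads in the IP and 10, 4 and 5 in total RNA (2.50 ± 0.74, edgeR adjusted p = 0.0183). It passed the filter on low counts through the IP libraries alone, so it entered the test only because it was high there, and its call supports nothing. Igf2bp2 had 32, 83 and 32 reads against 26, 18 and 17 (1.98 ± 0.64, adjusted p = 0.0276). Both rest on few reads, and neither stayed called when any 1 total RNA library was left out (adjusted p = 0.0506 to 0.121), with Igf2bp2 also lost without IP replicate 2 (1.27). For Igf2bp3, 18.7% of the exonic bases overlap Malsu1 on the opposite strand.

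Zfp385a, a zinc finger protein that binds RNA and also p53, had 211, 175 and 212 CPM in the IP and 22.0, 24.3 and 24.4 in total RNA. This was an 8.46-fold enrichment (3.08 ± 0.12, edgeR adjusted p = 1.29e-06), with a signed log2 fold change above that of 99.5% of tested genes. Its IP libraries agreed closely, with a coefficient of variation of 10.6%, unlike those of Msi1 at 33.6%. In the 3′ UTR, 39.3% of bases are C, the largest share in the set and a larger share than in 99.8% of tested genes.

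The order of the IP libraries recurred across genes. For the 19 enriched mRNAs, Igf2bp3 among them, IP library 2 was the highest in 13 and IP library 3 the lowest in 11. For the 18 depleted mRNAs IP library 3 was the highest in 12. IP library 3 also had the most detected genes and the largest mitochondrial share, and IP library 2 the fewest and the smallest. Their part in the fold changes was not tested. Leaving out any 1 IP library kept 17 or 18 of the 19 enriched calls and all 18 depleted ones. Leaving out any 1 total RNA library kept 16 enriched and all 18 depleted. The median coefficient of variation was 14.6% in the IP and 9.42% in total RNA for enriched mRNAs, and 11.3% and 5.17% for depleted ones.

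Per length, on the RPKM scale over the union of exons, the order of levels differed between the groups. In total RNA the highest were Hnrnpab at 132 ± 0.992 RPKM, Hnrnpa0 at 101 ± 9.53, Hnrnpa2b1 at 88.5 ± 5.63 and Khsrp at 65.3 ± 3.04 (SD, n = 3). Raly, Ptbp3, Hnrnpl, Hnrnpu, Hnrnpul1 and Hnrnpc followed at 57.5 to 44.0, and no neighbours among these 6 differed by more than their SDs added together, nor did Hnrnpa0 and Hnrnpa2b1. In the IP the order opened with Khsrp at 298.5 ± 15.4, Ptbp3 at 222 ± 44.1, Hnrnpul1 at 146 ± 24.9, Msi2 at 145 ± 52.6 and Hnrnpab at 127 ± 7.36. Hnrnpul1 and Msi2, and Msi2 and Hnrnpab, did not differ beyond their spread, whereas Hnrnpa2b1 had dropped to 16.7 ± 2.09.

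A ratio of the counts of 2 mRNAs within 1 library does not depend on how libraries are scaled. Its difference between IP and total RNA can still take in length or reads shared with other genes, whose part was not tested. For 12 pairs of related genes, picked after their values were seen, the ratio was computed in each library and is given without a test. Hnrnpa3 had 8.37, 9.56 and 8.61 times the reads of Hnrnpa1 in IP libraries 1, 2 and 3 and 1.20, 1.39 and 1.26 times in total RNA libraries 1, 2 and 3. The ratio of Hnrnpd to Hnrnpdl was 7.28, 7.27 and 6.67 in the IP against 1.26, 1.18 and 1.21. Syncrip and Hnrnpr were nearly equal in total RNA, at ratios of 1.13, 1.08 and 0.971, and stood at 3.69, 3.74 and 3.72 in the IP, the tightest of the 12. These 3 pairs varied less between IP libraries than Ptbp1 to Ptbp2 or Elavl1 to Elavl2 below. As the pairs were picked, they do not show how well the IP libraries agree in general.

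Ptbp3 to Ptbp2 went from 20.1, 15.6 and 15.3 in total RNA to 79.5, 74.8 and 74.6 in the IP. Ptbp1 to Ptbp2 went from 5.85, 7.10 and 6.42 to 24.7, 16.7 and 30.0. Elavl1 to Elavl2 had the widest spread, with 18.3, 31.2 and 12.8 in the IP against 5.27, 3.97 and 4.84. The other pairs were Hnrnpa3 to Hnrnpa2b1, Hnrnpc to Raly, Hnrnpul1 to Hnrnpul2, Elavl3 to Elavl4, and Khsrp to Fubp1 and to Fubp3. Averaged on the log2 scale, their ratios were 2.56-fold to 6.69-fold higher in the IP. In all 12 pairs every IP library exceeded every total RNA library. The pairs were picked with their values known and written with the gene of higher fold change on top. Their common direction was therefore set by the choice.

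**Figure D3:**
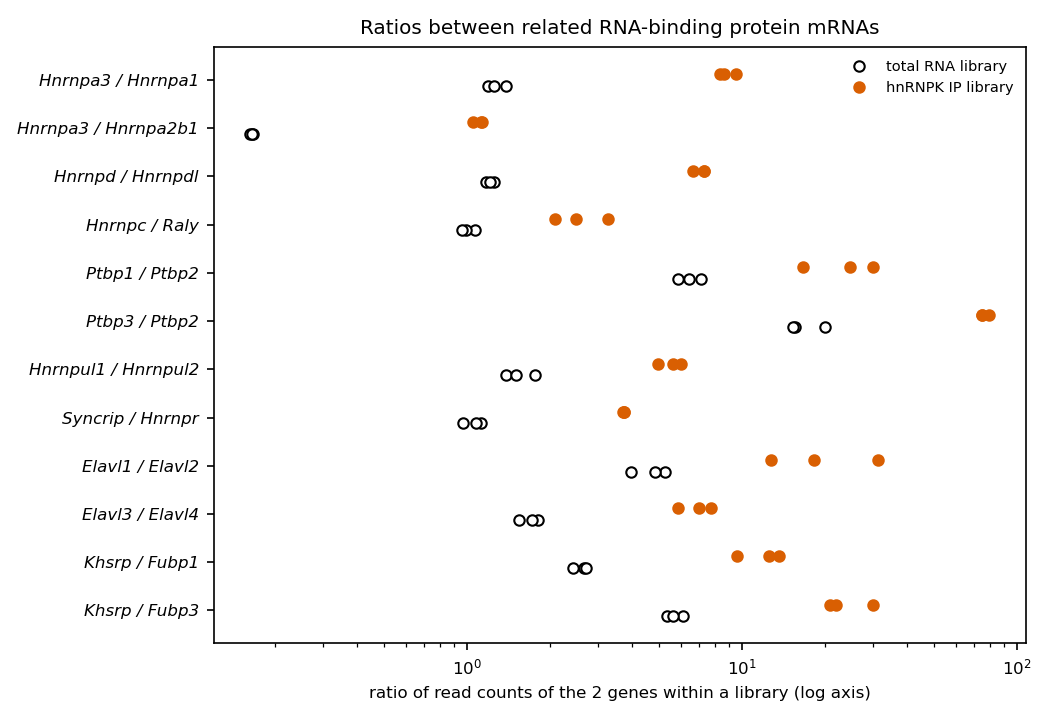
Ratio of read counts of 12 pairs of related RNA-binding protein mRNAs within each library (log axis), hnRNPK IP filled and total RNA open. In every pair the 3 IP libraries lie to the right of the 3 total RNA libraries. That direction was set by the choice of pairs, each with the gene of higher fold change on top. Syncrip to Hnrnpr shows the least spread in the IP, 3.69 to 3.74.

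Features of the annotated transcripts were set beside the fold changes as a description, with no p, since genes share libraries and base composition. Over the 45 genes Spearman's rho between the log2 fold change and the share of C in the 3′ UTR was 0.67, against 0.19 over all 12872 tested genes with a 3′ UTR of at least 100 bases. Enriched genes had a median of 21.4% C (14.9% to 39.3%), depleted genes 15.9% (12.2% to 26.5%) and genes not called 17.8%. Here and below, the 45 genes and the 19 enriched ones include Igf2bp3, which passed the filter on low counts in the IP alone. Of the 25 set members in the lowest quintile of tested genes, with 6.38% to 18.2% C, 16 were depleted, 4 enriched (Hnrnpa3, Hnrnpd, Ptbp3 and Syncrip) and 5 not called. In that quintile as a whole 47.5% of genes were depleted and 20.7% enriched. Of the 9 set members in the highest 2 quintiles, 8 were enriched and Raly was depleted, where 35.1% and 42.1% of all genes in these quintiles were enriched.

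Counts of C runs gave a like order. The motif CCC, counted on the transcript strand with overlaps allowed, occurs in 97.5% of tested 3′ UTRs, and its number per kb had a rho of 0.68 with the fold change in the set and 0.26 over all genes. It stood at 96.4 per kb in Zfp385a, 72.8 in Msi1, 41.2 in Elavl3 and 37.1 in Khsrp, against 1.26 in Ptbp2, 2.66 in Hnrnph1 and 5.60 in Hnrnpa1. The number of C in the best 30-base window had a rho of 0.73 in the set and 0.48 over all genes. That number also goes with the length of the 3′ UTR (rho 0.54 in the set and 0.45 over all genes), as a longer sequence offers more windows. The windows printed earlier are a selection that leans to the ends of this range. Over the set the best window held 13 to 25 C in enriched genes (median 19). It held 8 to 17 in depleted genes (median 11) and 12 to 19 in genes not called (median 14), so the ranges overlap. Ptbp3, with 16.4% C and a best window of 13, had the lowest share of C among the 14 genes enriched at least 2-fold.

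Length moved with the fold change too. Transcript length had a rho of 0.39 in the set and 0.50 over all tested genes, and 3′ UTR length 0.47 and 0.49. Coding length had −0.01 in the set against 0.27 over all genes. Enriched genes had a median transcript of 5014 nt and a median 3′ UTR of 3498 nt, depleted genes 2715.5 and 733 nt. All 10 set members in the shortest 2 quintiles of 3′ UTR length, up to 855 nt, were depleted, in quintiles where 59.1% and 50.6% of all genes were. Among longer transcripts both calls occurred: Hnrnpr, with the longest transcript of the set at 21452 nt, Hnrnpu (7640 nt) and Tardbp (7477 nt) were depleted, and Syncrip (9450 nt) and Celf2 (8856 nt) were enriched. These are lengths of the longest annotated transcript, with 19419 nt of 3′ UTR in Hnrnpr. Which transcripts these cells make was not examined. The 2 most enriched, Msi1 and Zfp385a, had 3133 and 2348 nt. With the offset for gene length the rho with C content was 0.73 in the set and 0.25 over all genes. The rho with transcript length was still 0.25 in the set and 0.27 over all genes. The offset used the length of the union of exons, another measure than transcript length, so it need not take out transcript length in full. The part of length in the fold changes was not tested.

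**Figure D4:**
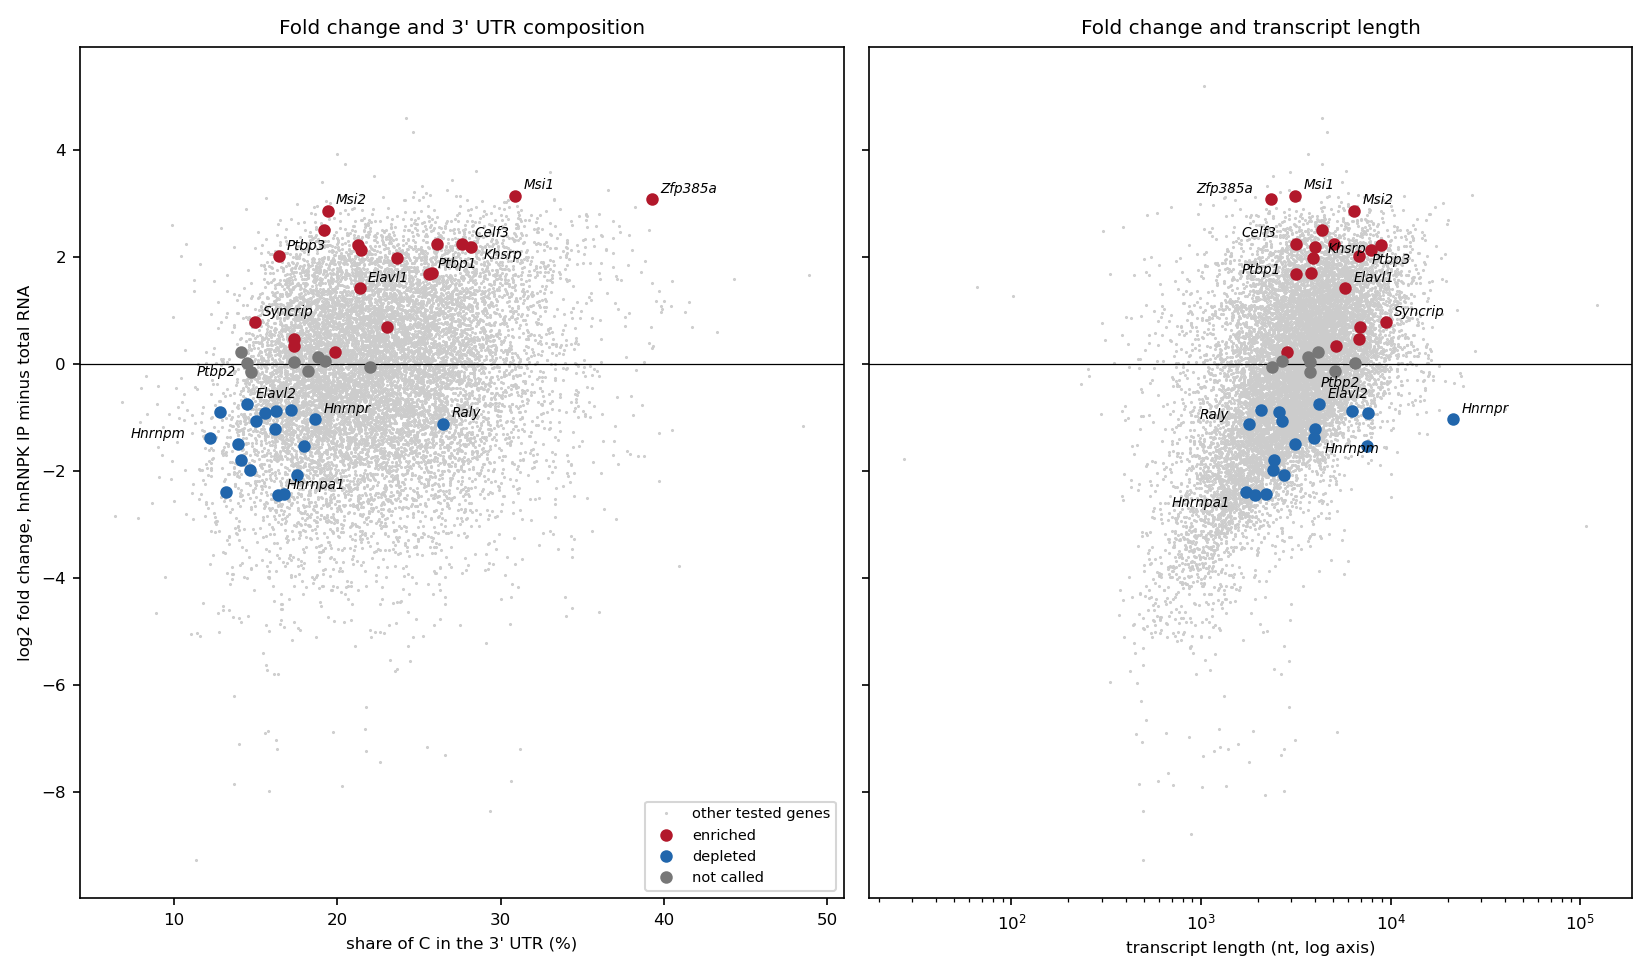
Log2 fold change (hnRNPK IP minus total RNA) of the set members, coloured by call, and of other tested genes (grey) against the share of C in the 3′ UTR (left, %) and the length of the longest protein-coding transcript (right, nt, log axis). Set members under 18.2% C are mostly depleted and those over 23.3% mostly enriched, apart from Raly, while Hnrnpr is depleted at 21452 nt.

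Other RNA-binding protein genes, a list of 59 outside the set, are given for comparison. Of the 56 tested, 26 were enriched (46.4%, against 28.9% of all tested genes), 21 depleted (37.5%, against 33.6%) and 9 not called, with a median of 0.38. Within the poly(C)-binding family, Hnrnpk itself had 148, 121 and 154 CPM in the IP and 177, 195 and 192 in total RNA (−0.42 ± 0.11, edgeR adjusted p = 0.0114), so its own mRNA was not over-represented. That call was lost without total RNA replicate 2 (adjusted p = 0.0687) or 3 (0.0631). Pcbp2, which binds C-rich 3′ UTRs, had 803, 749.9 and 843 CPM against 166, 169.6 and 167 (2.25 ± 0.08), while Pcbp1, which arose from a retrotransposed Pcbp2 transcript, was depleted (−0.44 ± 0.13, adjusted p = 0.0197), a call lost without total RNA replicate 2 or 3 (adjusted p = 0.093 and 0.0918) and a direction turned by the length offset (0.13).

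Among muscleblind, Rbfox and Celf relatives 5 of 6 tested genes were enriched and none depleted, led by Celf5 at 92.1, 115 and 82.1 CPM in the IP against 12.02, 12.7 and 13.2 (2.93 ± 0.15). The lowest value on the list belonged to the cold shock protein Ybx1, with 113, 79.8 and 144 CPM against 761, 766 and 779.5 (−2.78 ± 0.20). Next came the KH proteins Mex3b (−1.64 ± 0.28) and Khdrbs3 (−1.61 ± 0.13). High values were those of the ataxin-2 relative Atxn2l (2.66 ± 0.08) and the neuronal splicing factor Nova2 (2.43 ± 0.18). Over these 56 genes the rho between the fold change and the share of C in the 3′ UTR was 0.26, lower than the 0.67 in the set, and no test of that difference was made.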

How the data were processed

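The authors used TopHat2, the mm10 build and featureCounts, per the submitters' processing notes. The deposited files hold raw whole-number counts per gene, 1 table per library; the labels state no tool versions, strand setting or rule for multiply aligned reads. Symbols, coordinates and transcripts came from GENCODE M21 (GRCm38), which matched 53274 of 53379 gene identifiers. The 105 without a match made up 0.0237% of counts or less per library. Groups came from the sample titles, 3 libraries each. Since no label gives separate cultures, p-values reflect only how these libraries vary, and that variation may be technical. Within groups, chi-square per degree of freedom was 6.40 to 123, so no 2 libraries agreed within sampling noise.

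The test used edgeR 4.0.16 in R 4.3.3 (TMM, filterByExpr with a minimum count of 10 and a minimum total of 15, glmQLFit and glmQLFTest on the group), with Benjamini-Hochberg adjustment over all genes tested and a threshold of 0.05. Scripts were tested on simulated data. The 17 alternatives used other scaling, DESeq2 1.42.0, limma 3.58.1 voom, no filter, halved counts, offsets for gene length and GC content, a replicate block and each library left out. 3′ UTR features used the longest protein-coding transcript. The genes and lists were chosen with earlier results of these data known. By the rule for names, all 46 genes were described, with values in every library for the extremes of each protein group and for relatives that differed in direction. From the other list it named Hnrnpk, Pcbp1, Pcbp2 and the 3 highest and 3 lowest fold changes of called genes whose mean was 5 CPM or more; an item it also took is not reported here. As the strand setting is unknown, reads from genes that overlap could not be separated.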

Additional observations from a re-analysis of the deposited data

How the results depend on the processing

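The numbers of depleted set members (18 to 25) and of other RNA-binding genes called stayed within 1.5 times of the values given under every alternative. Enriched set members numbered 11 with the offset for gene length and 11 with the replicate block and that offset together. Over all 16929 tested genes 4453 and 3910 were enriched under these. Leaving out 1 library gave 16 to 18 enriched and 18 to 19 depleted set members, and 24 to 27 enriched and 17 to 22 depleted genes of the other list. Of the 17642 to 17759 genes then tested, 4242 to 5181 were enriched and 4714 to 6201 depleted. Same-numbered IP and total RNA libraries did not deviate together (r = 0.0009, −0.07 and 0.12), so the numbers were not taken as pairs. The replicate block gave 16 enriched and 18 depleted set members, beside 4384 and 5364 of all 16929 tested genes. Hnrnpc (0.21), Igf2bp2 (1.79) and Igf2bp3 (2.56) lost the call under it.

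Spearman's rho with the share of C in the 3′ UTR was 0.733 with the length offset and 0.736 with block and length offset. With transcript length it was 0.250 and 0.249 under these, and 0.163 for the union of exons. With GC share it was 0.363 and 0.364 under these, 0.291 with the GC offset and 0.377 for the union of exons, beside 0.23 without them.

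Several small changes turned direction. With library totals alone Hnrnpa0 was −0.38, Hnrnpa3 −0.10, Hnrnpc −0.22, Elavl4 −0.21, Khdrbs1 −0.40, Fubp1 −0.42 and Fubp3 −0.31. Of these, Hnrnpa0, Hnrnpc, Khdrbs1 and Fubp1 were called depleted there. With no filter Fubp1 was −0.0196. With the length offset Hnrnpa3 was −0.0108, Hnrnpab 0.11, Hnrnpd −0.0811, Syncrip −0.0931, Elavl4 −0.12, Khdrbs1 −0.42, Fubp1 −0.96, Fubp3 −0.29 and Pcbp1 0.13. With the replicate block and length offset they were at −0.0145, 0.11, −0.0820, −0.0951, −0.12, −0.43, −0.97, −0.30 and 0.12 in the same order. Khdrbs1 and Fubp1 were called depleted with the length offset, with and without the block. With the GC offset Hnrnpab was 0.0155 and Fubp1 −0.31. Leaving out 1 library gave −0.0246 (without IP replicate 1) to 0.174 for Hnrnpa0, −0.0826 (without IP replicate 3) to 0.104 for Khdrbs1, −0.0959 (without IP replicate 2) to 0.0707 for Fubp1, also negative without IP replicate 3 (−0.0324), and −0.00109 (without IP replicate 1) to 0.187 for Fubp3. The cause was not tested.

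Small changes are limited by the scaling, which moved all values by −0.43 between TMM and library totals, and by the spread of the IP libraries. Igf2bp1, Igf2bp2 and Igf2bp3 are limited by depth.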
